A study of Rattus norvegicus with 170 samples.

Results

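Some cells of rat islets cultured with vehicle held RNA of both insulin and glucagon. These double cells are compared here with cells that held insulin RNA and none of the other islet hormones at a high level. The islets came from 8-week-old male wild-type Sprague Dawley rats. They were hand-picked and cultured whole for 48 h with 0.1% DMSO, the vehicle, at 5.5 mM glucose. They were then dispersed with trypsin and loaded on Fluidigm C1 chips, where ports were looked at under a microscope before lysis and, by the authors' account, only those seen to hold a single cell were used. Islets of the other treatment were kept in the same way with 3 µM GNF4877, an inhibitor of the kinases DYRK1A and GSK3B, and serve here only for reference. Of 170 cells in the series, 86 were from DMSO and 84 from GNF4877. The labels give neither rat nor culture for a cell, so each treatment is 1 sample and cells are not replicates. Differences are therefore described without a test, and intervals cover counting error only.

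The cells were chosen by their hormone values in RPM, the reads of a gene relative to all mapped reads of its cell. Of the 86 DMSO cells, 4 with less than 300000 RPM on the listed transcripts were dropped and 82 were kept. A cell was called double when *Ins1* and *Gcg* each reached 1000 RPM, and 22 of the 82 cells were double (26.8%, with an exact 95% interval of 17.6% to 37.8%). A cell was called insulin-only at 1000 RPM or more of *Ins1* with *Gcg*, *Sst* and *Ppy* each below 1000 RPM, and 50 cells were insulin-only. The comparison thus covers 72 cells. A further 4 cells had *Gcg* of 1000 RPM or more with *Ins1*, *Sst* and *Ppy* each below it, and these are the α reference. Of the other 6 cells kept, 5 had 1000 RPM or more of *Ppy* or *Sst* and 1 had none of the hormones at that level. Mapped reads ran from 469807 to 2499138 in the double cells, with a median of 1355290.0, and from 241604 to 2497246 in the insulin-only cells, with a median of 1182924. In the α reference they ran from 337705 to 1278191.

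In the adult islet the β cell makes insulin and the α cell makes glucagon, and each keeps its identity through its own transcription factors. *Pdx1* and *Nkx6-1* are known for holding the β-cell state and for repressing α-cell genes. *Irx1* and *Irx2* are homeobox genes of α cells. Insulin and glucagon have opposed actions on blood glucose.

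The values that selected the cells are given as a description. *Gcg*, which encodes proglucagon, ran from 5982 RPM in the lowest double cell through a median of 163196 to 301714 RPM in the highest. In the insulin-only cells it ran from 16.2 through 80.5 to 865 RPM. The threshold of 1000 RPM therefore fell in a gap, between 865 and 5982 RPM. *Ins1*, the rat insulin 1 gene, ran from 1784 through 31841 to 112094 RPM in the double cells and from 3891 through 40864 to 147087 RPM in the insulin-only cells. The groups overlapped, and 21 of the 22 double cells lay inside the insulin-only range of *Ins1*. The highest *Ins1* in an α reference cell was 495 RPM, below the lowest double cell at 1784 RPM. For the other hormones of the rule the highest insulin-only values were 29.7 RPM of *Ppy* and 27.4 RPM of *Sst*, and among the other 6 cells the lowest values over the threshold were 45020.5 RPM of *Ppy* and 1672 RPM of *Sst*. Of the double cells, 20 held more *Gcg* than *Ins1*. The exceptions were DMSO cell 60, with 20632 RPM of *Ins1* and 5982 RPM of *Gcg*, and DMSO cell 66, with 112094 and 46444 RPM. *Sst*, somatostatin, stayed at or below 32.3 RPM in every double cell. *Ppy*, pancreatic polypeptide, was not limited in the double cells by the rule, and 5 of the 22 held 1000 RPM or more of it, up to 7857 RPM, against a median of 7.48 RPM.

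**Figure D1:**
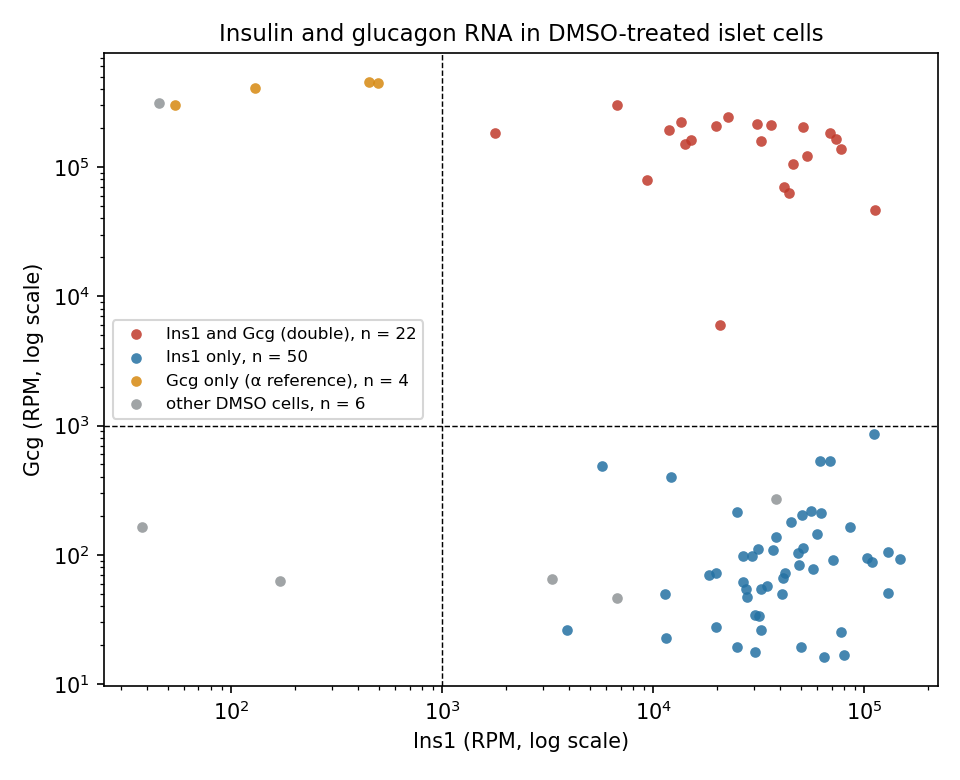
*Gcg* against *Ins1* in RPM, both on log scales, for the 82 DMSO cells kept; each point is a cell, coloured by class, and dashed lines mark 1000 RPM. The 22 double cells lie between 5982 and 301714 RPM of *Gcg*, and the 50 insulin-only cells at or below 865 RPM.

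The double cells held α-cell transcription factors that were nearly absent from the insulin-only cells. *Irx2* ran from 0 through a median of 2.28 to 66.6 RPM in the double cells, where 15 of 22 had a read (68.2%, exact interval 45.1% to 86.1%). In the insulin-only cells 2 of 50 had a read (4%, 0.488% to 13.7%), 1 of them at 15.6 RPM, which was 93.7% of their sum. The intervals, which cover counting error only and are no test, do not overlap, although the levels did. *Pou3f4*, a POU homeobox gene of α cells, was read in 13 of 22 double cells (59.1%, 36.4% to 79.3%), with a median of 6.74 and a highest value of 214 RPM. It had no read in any of the 50 insulin-only cells, which allows a share of up to 7.11%. Set against 3 reads over the whole insulin-only group (0.0680 RPM), its mean of 26.5 RPM was at least 390-fold higher.

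Detection depends on depth, so the shares were also computed with every cell thinned to 100000 reads. No cell of either group had fewer reads than that. The mean chance of a read was then 36.6% in double and 1.85% in insulin-only cells for *Irx2*, and 47.4% and 0% for *Pou3f4*. Both factors thus stood higher in the double cells at equal depth as well. In the α reference each was read in 2 of 4 cells.

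*Etv1*, an ETS-family transcription factor, nearly separated the groups. It was read in all 22 double cells, from 5.57 through 226 to 513 RPM, and in 6 of 50 insulin-only cells, from 0 through 0 to 9.76 RPM. The groups overlapped only there, where the highest insulin-only cell lay above 3 double cells, at 5.57, 7.79 and 8.86 RPM. *Rbp4*, which encodes the retinol carrier and marks δ cells among islet cells in rodents, stood alike, with 0.697 through 53.8 to 240 RPM in the 22 double cells and 1 read in 1 of 50 insulin-only cells (0.892 RPM). It was also read in 4 of 4 α reference cells, with a mean of 26.4 RPM, and in 15 of the 16 from GNF4877. The δ-cell factor *Hhex* had no read in a double cell, which allows a share of up to 15.4%. It was scarce in the insulin-only cells too, with 3 reads in 3 of 50 cells, and had none in the α reference. Of all 17208 genes read in a cell of either group, only *Gcg* had its lowest double cell above its highest insulin-only cell. For *Gcg* this was set by the rule, which chose the cells by it. No gene had its highest double cell below its lowest insulin-only cell.

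To compare all genes, the mean RPM of the 22 double cells was set over that of the 50 insulin-only cells as log2((mean RPM + 1)/(mean RPM + 1)), called the log2 ratio below. Over the 17208 genes its median was -0.09. A log2 ratio of 2-fold or more above was found for 1501 genes (8.72%), and of 2-fold or more below for 1843 genes (10.7%). The balance depends on the scale and on a few cells, with 2014 above and 1515 below on RPM without hormone genes and 1119 above and 461 below when log2(RPM + 1) was averaged over cells. Without the 2 insulin-only cells high in mesenchymal genes there were 1648 above and 1525 below. Many of these genes rest on a few cells, and the counts carry no test.

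Of 18 α-cell genes, a list without *Gcg*, 10 were 2-fold or more above, against 8.72% of all genes, and none was 2-fold or more below. The list's median log2 ratio was 1.58, and 17 of the 18 lay above 0, against 7233 of all 17208 genes. Transcription factors in it had log2 ratios of 7.38 (*Etv1*), 4.78 (*Pou3f4*) and 3.21 (*Irx2*). Without the insulin-only cell that held most of the *Irx2*, its log2 ratio was 3.60. *Gc*, the vitamin D-binding protein that α cells make in quantity, ran from 459 through 1753 to 4149 RPM in the double cells and from 0 through 401 to 1565 RPM in the insulin-only cells, with a log2 ratio of 1.84. Nearly all insulin-only cells thus had some *Gc*, and a double cell had the more *Gc* in 92.9% of all 1100 pairs of a double with an insulin-only cell. *Tmem27*, which encodes collectrin, averaged 928 against 369 RPM (log2 ratio 1.33), and *Cryba2*, a crystallin gene, 47.4 against 6.25 RPM (2.74). A single insulin-only cell held 57.1% of its group's *Cryba2*, without which the log2 ratio was 3.70. *Smarca1*, a chromatin remodeller, averaged 15.2 against 1.24 RPM (2.86, or 3.43 without 1 insulin-only cell with 60.1% of the sum), and *Dpp4*, which encodes the peptidase that inactivates incretins, 3.69 against 0.0421 RPM (2.17), the latter from 4 double cells and 1 insulin-only cell. Other genes of the list differed less. *Slc38a5*, a glutamine transporter, had a log2 ratio of 0.68, *Slc7a2*, an arginine transporter, 0.41, and *Sstr2*, a somatostatin receptor, 0.66. *Rgs4*, a regulator of G-protein signalling and the most abundant gene of the list, averaged 2124 against 1199 RPM (0.82). *Tm4sf4* was the gene of the list below 0, at -0.25. In the α reference 11 of the 18 genes were at least 4-fold above the insulin-only mean, but others were not high. *Rgs4* averaged 769 RPM there, below both groups, and *Tm4sf4* 102.5 RPM, against 505.5 RPM in insulin-only cells. *Slc7a2* (75.97 against 60.03 RPM) and *Sstr2* (16.63 against 13.95 RPM) were near the insulin-only level. The count above 0 thus includes genes that were not high in the α reference. *Ttr*, transthyretin, was read in 1 of 22 double cells and no insulin-only cell, and in 1 of 4 α reference cells, and *Irx1* in 5 of 22, none and 1 of 4.

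The β-cell genes went both ways. Of 22 β-cell genes, a list without *Ins1*, 20 matched, and their median log2 ratio was -0.06, close to that of all genes. A single gene was 2-fold or more above and 1 was 2-fold or more below, against 8.72% and 10.7% of all genes. The sign of so small a median is not fixed. It was 0.12 on RPM computed without the hormone genes, a scale on which the median of all genes was 0.03, and it was 0.03 when log2(RPM + 1) was averaged over cells before subtracting. *Pdx1* ran from 0 through 15.99 to 93.9 RPM in the double cells and from 0 through 31.4 to 161 RPM in the insulin-only cells. It was read in 17 of 22 (77.3%, 54.6% to 92.2%) and 45 of 50 (90%, 78.2% to 96.7%), shares whose intervals overlap. *Nkx6-1* ran from 0 through 7.68 to 44.4 RPM in the double cells and from 0 through 7.04 to 48.3 RPM in the insulin-only cells, with reads in 20 of 22 and 38 of 50. Neither gene had a read in any of the 4 α reference cells, which allows a share of up to 60.2%, nor in the 16 α reference cells from GNF4877. *Slc2a2*, the glucose transporter of rodent β cells, averaged 1725 RPM in double and 1707 RPM in insulin-only cells, against 13.7 RPM in the α reference. *Pcsk1*, the proinsulin convertase, averaged 342 against 285 RPM, with 1.28 RPM in the α reference. *Ucn3*, the urocortin of mature β cells, averaged 171 against 179 RPM, and *Glp1r*, the incretin receptor, 108 against 126 RPM. *Prlr*, the prolactin receptor, averaged 52.3 against 52.6 RPM.

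Some genes of the β-cell list differed more. *Ins2* averaged 16480 against 23657 RPM (log2 ratio -0.52), and *Iapp*, amylin, 1339 against 1737 RPM (-0.38). *Ero1lb*, an oxidase of the secretory pathway, had a log2 ratio of -0.78, and *Sytl4*, granuphilin, -0.62. *Npy*, neuropeptide Y, was the lowest, at 21.1 against 167 RPM (-2.93), with reads in 9 of 22 and 29 of 50 cells and 53.6% of the double cells' sum in 1 cell, without which it was -3.90. *P2ry1*, a purine receptor, was the highest, at 32.2 against 10.2 RPM (1.57), with a median of 0 RPM in both groups. *Mafa*, a defining factor of mature β cells, was nearly absent from both groups, with reads in 2 of 22 double and 3 of 50 insulin-only cells and a highest value of 3.67 RPM, so these cells could not be checked against it.

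Factors of both cell types were read in the same port. In 18 of the 22 double cells there was a read of *Irx2* or *Pou3f4* together with a read of *Pdx1* or *Nkx6-1*. Such a pair was found in 2 of 50 insulin-only cells and in none of the 4 α reference cells. *Irx2* with *Nkx6-1* was found in 14 double cells and 1 insulin-only cell, *Irx2* with *Pdx1* in 12 and 2, *Pou3f4* with *Nkx6-1* in 12 and 0, and *Pou3f4* with *Pdx1* in 11 and 0. *Etv1* with *Nkx6-1* was found in 20 and 4, and *Etv1* with *Pdx1* in 17 and 5. Of the double cells, 9 had a read of both *Irx2* and *Pou3f4*, 10 of 1 of them and 3 of neither. Among the insulin-only cells 48 had neither and 2 had *Irx2*. The 3 double cells with neither were DMSO cell 60, the cell with the least *Gcg*, DMSO cell 21, the cell with the least *Ins1*, and DMSO cell 79. A single double cell, DMSO cell 27, had neither *Pdx1* nor *Nkx6-1*.

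**Figure D2:**
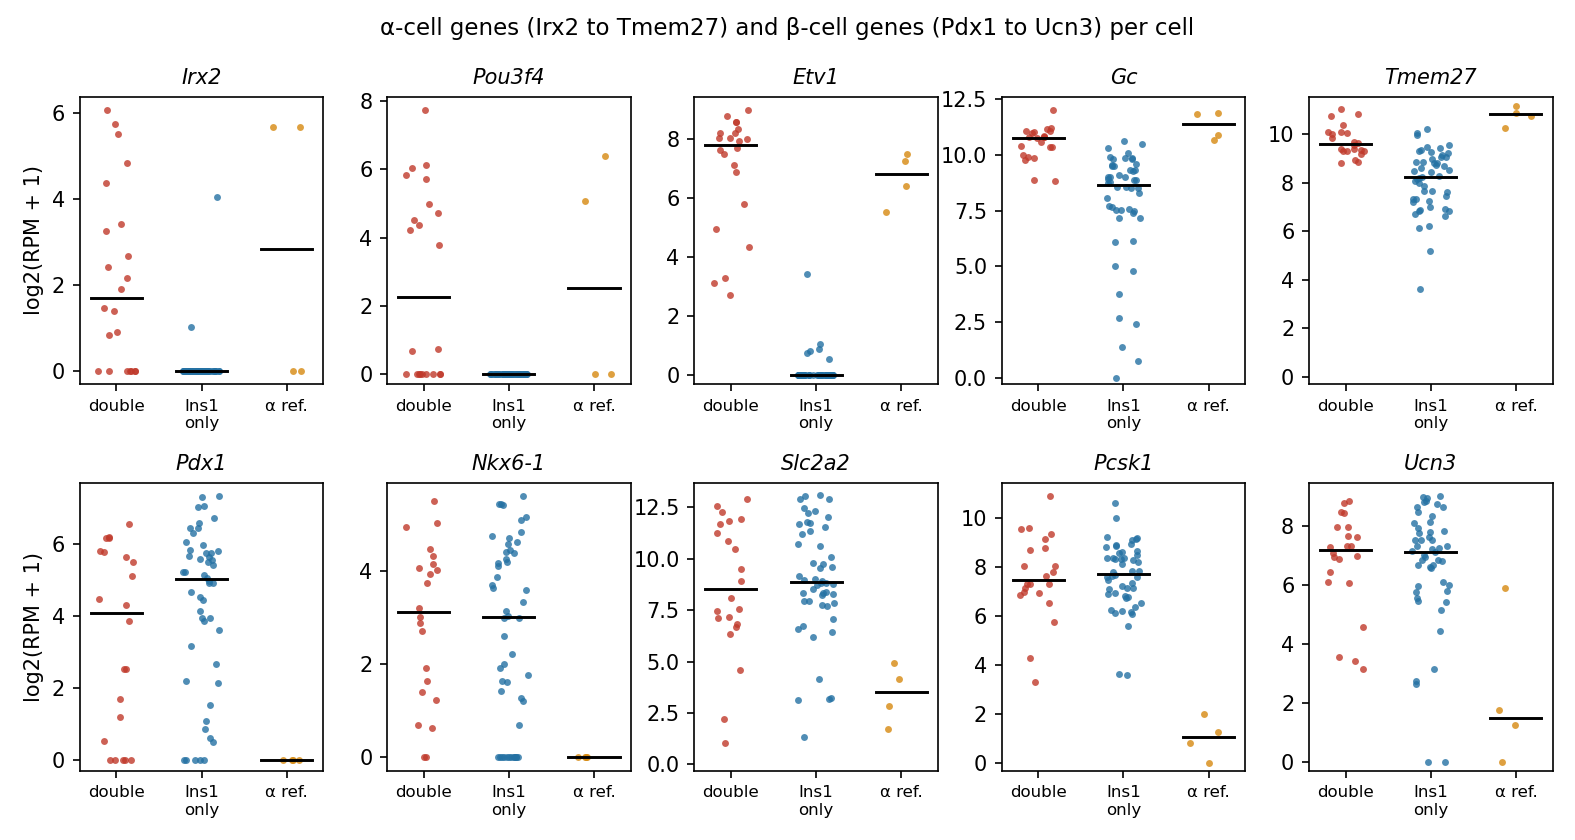
Level of 5 α-cell genes (upper row) and 5 β-cell genes (lower row) as log2(RPM + 1) in 22 double, 50 insulin-only and 4 α reference cells of DMSO; each point is a cell and lines are medians. The double cells reach the levels of the α reference for *Etv1* and *Gc* and overlap the insulin-only cells for *Nkx6-1*, *Slc2a2* and *Pcsk1*.

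Genes that α and β cells share were described next, as a list of 22 with all members read. Its median log2 ratio was 0.33, with 4 genes 2-fold or more above and none below, against 8.72% and 10.7% of all genes. *Chgb*, chromogranin B of the secretory granule, ran from 117 through 707 to 3774 RPM in the double cells and from 3.35 through 144 to 1232 RPM in the insulin-only cells, with a log2 ratio of 2.14. *Chga*, chromogranin A, averaged 393 against 154 RPM (1.35), and *Isl1*, a LIM homeobox factor, 105 against 43.2 RPM (1.26). *Stx1a*, a syntaxin of granule release, averaged 12.9 against 2.12 RPM (2.16), with reads in 11 of 22 and 9 of 50 cells. The double cells stood high for these 4 genes, with overlap for each. *Chgb* and *Chga* were also high in the α reference, at 1596 and 494 RPM, and so was *Pcsk2*, the proglucagon convertase, at 2115 RPM, against 1477 in double and 806 RPM in insulin-only cells (0.87). *Scg2*, *Scg3* and *Cpe*, secretory granule genes, had log2 ratios of -0.27, 0.01 and -0.33. *Neurod1* (0.39), *Pax6* (0.57), *Abcc8* (0.36), *Kcnj11* (0.63) and *Slc30a8* (0.42) stood less than 2-fold above.

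The 15 genes with the highest log2 ratio, among those read in 50% or more of the double cells, began with *Gcg* (10.21) and *Ppy* (7.94), which belong to the rule, and *Itih3* (7.48), an inter-α-trypsin inhibitor chain. *Itih3* ran from 0 through 198 to 966 RPM in the double cells, where 17 of 22 had a read, and stayed at or below 2.77 RPM in the insulin-only cells. It was absent from 5 double cells, so the group was split. *Etv1*, *Rbp4* (6.13), *Pou3f4* and *Pyy* (4.43), the peptide YY gene, were also among the 15. A single double cell held 52.6% of the *Pyy*, without which the log2 ratio was 3.46. *Serpina3n*, a serine protease inhibitor, averaged 599 against 14.2 RPM (5.30, or 6.85 without 1 insulin-only cell that held 70.9% of its group's sum). The potassium channel gene *Kcnk16* was read in all 22 double cells, from 10.6 through 89.5 to 472 RPM, and in 9 of 50 insulin-only cells, with a highest value of 42.8 RPM (log2 ratio 5.02). A double cell had the more *Kcnk16* in 98.5% of pairs. The neighbouring family members *Tmem176b* and *Tmem176a* had log2 ratios of 5.16 and 4.74, and *Pdk4*, a kinase that restrains pyruvate dehydrogenase, 4.77. Single insulin-only cells held 92.1% of their group's *Tmem176b* and 73.6% of its *Pdk4*, and without them the log2 ratios were 5.97 and 5.55. The log2 ratio of *Gata6*, a zinc finger factor, was 4.37, and that of *Met*, the receptor of hepatocyte growth factor, 4.34. *Gata6* and *Met* were each read in 1 insulin-only cell and in 13 and 15 double cells.

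The 15 genes with the lowest log2 ratio, among those read in 50% or more of the insulin-only cells, began with *LOC100912222* (-4.27) and *Klk1* (-4.21), a kallikrein. *Klk1* ran from 0 through 0 to 23.1 RPM in the double cells, where 3 of 22 had a read, and from 0 through 17.0 to 277 RPM in the insulin-only cells, where 31 of 50 had one. It had no read in the α reference. *Rgs9*, a regulator of G-protein signalling, ran from 0 through 1.68 to 45.2 RPM in the double cells and from 0 through 38.3 to 228 RPM in the insulin-only cells (-2.82), and it too had no read in the α reference. The double cells were low for both genes and lay within the insulin-only range. *F3*, tissue factor, had a log2 ratio of -3.09, *Pdpn*, podoplanin, -3.06, *Prkcd*, protein kinase C delta, -3.00, *Heatr1* -2.98, *Ddx54* -2.95, *Ass1*, argininosuccinate synthase, -2.83, *Tgif1* -2.82, *Slc7a11*, the cystine transporter, -2.79, *Usp25* -2.77 and *Gpnmb* -2.74. *LOC100910568* (-3.29) and *Npy* complete the 15. Single double cells held 89.7% of the group's *Pdpn*, 77.2% of *LOC100912222*, 59.2% of *LOC100910568* and 56.8% of *Heatr1*, and without them the log2 ratios were -4.97, -5.41, -3.88 and -3.63. *Slc7a11* was nearly level across cells, and the double cell held the more of it in 44.2% of pairs. *LOC100912222* and *F3* changed sign at a hormone threshold of 100 RPM, to 0.53 and 0.23.

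Immediate early genes, which respond within minutes to stimulation or to handling of tissue, were higher in the double cells. Of 10 immediate early and heat shock genes 6 were 2-fold or more above, against 8.72% of all genes, and none below, with a median log2 ratio of 1.53. Their sum ran from 608 through 1983 to 5558 RPM in the double cells, from 47.02 through 685 to 2566 RPM in the insulin-only cells and from 2286 through 2851 to 4221 RPM in the α reference. The double cells stood between the other groups at the median, and in 89.2% of pairs the double cell had the higher sum. *Fos*, a subunit of AP-1 and the most abundant gene of the list, averaged 1037 against 325 RPM (1.67), *Egr1*, a zinc finger factor, 409 against 112 RPM (1.86), and *Atf3*, a stress-induced bZIP factor, 192 against 97.6 RPM (0.97). *Jun*, the partner of *Fos* and named after its value was seen, averaged 107 against 15.8 RPM (2.69). The 16 α reference cells from GNF4877 had a lower sum, with a median of 450 RPM.

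Genes of the endoplasmic reticulum stress response were lower in the double cells. All 9 genes of the list lay below 0, with a median log2 ratio of -0.86. Of all 17208 genes, 7233 lay above 0. In the list 3 were 2-fold or more below, against 10.7% of all genes. Their sum ran from 1771 through 5382 to 14068 RPM in the double cells, from 3067 through 11540 to 25686 RPM in the insulin-only cells and from 1047 through 2205 to 3158 RPM in the α reference. The double cells again stood between the others at the median, and the double cell had the higher sum in 18.8% of pairs. *Hspa5*, the chaperone BiP and the most abundant gene, ran from 1361 through 2880 to 8759 RPM in the double cells and from 931 through 6807 to 18283 RPM in the insulin-only cells (-1.07). *Ddit3*, the factor CHOP, averaged 834 against 1790 RPM (-1.10), and *Dnajb9*, a co-chaperone, 675 against 1176 RPM (-0.80). All 3 overlapped between the groups.

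Among the cell cycle genes the mitotic ones were sparse in both groups. Of 12 genes 2 were 2-fold or more above and 4 below, against 8.72% and 10.7% of all genes, with a median log2 ratio of -0.81. Both genes above rest on 1 double cell each, with 98.6% and 81.3% of the sum, and stood at -0.76 and -0.14 without it. Of the 4 below, *Top2a* was read in a single insulin-only cell, and *Ccna2* had 98.1% of its sum in 1 such cell and stood at -0.08 without it. The median of the list was -0.14 when log2(RPM + 1) was averaged over cells, and -0.25 without the 2 insulin-only cells high in mesenchymal genes that are described below. The abundant members *Ccnd2*, *Ccnd1* and *Pcna* had log2 ratios of -0.80, 0.22 and -0.47. *Mki67*, a marker of dividing cells, had no read in the 22 double cells, which allows a share of up to 15.4%, and was read in 9 of 50 insulin-only cells (18%, 8.58% to 31.4%), shares whose intervals overlap. *Top2a*, *Ccna2*, *Ccnb1* and *Cdc20* also had no read in a double cell. They were read in 1, 2, 1 and 5 insulin-only cells. Of 7 adhesion genes the median log2 ratio was 0.30, with 1 gene 2-fold or more above and 1 below, near the 8.72% and 10.7% of all genes. The abundant members *Cdh1*, *Epcam* and *Ncam1* had log2 ratios of 0.30, -0.20 and 1.10. In the list of endocrine progenitor and dedifferentiation genes 7 of 10 had a read, and *Neurog3*, *Aldh1a3* and *Sox11* had none in either group. The median was -0.21, and the abundant members *Myt1*, *Sox4* and *Hes1* had log2 ratios of -0.21, -0.79 and 0.55.

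Markers of other cell types were near 0 in the double cells, apart from a few genes. Of 11 acinar genes 9 had a read, with a mean sum of 1.52 RPM in double and 1.5 RPM in insulin-only cells. *Cela1* was the most abundant in the double cells, at 1.30 RPM, while *Prss1* had no read there and *Cpb1* and *Clps* had none in either group. Of 9 endothelial genes 6 had a read, with a mean sum of 9.26 against 17.1 RPM, mostly *Esam*, of which 1 double cell held 84.1%, and *Pecam1* and *Kdr* had none. All 9 immune genes had a read in a cell of either group, with a mean sum of 2.32 against 3.95 RPM. *C1qa*, the most abundant over both groups together, averaged 0.665 against 0.789 RPM. *Cd68*, *Tyrobp*, *Fcer1g* and *Csf1r* had no read in a double cell. Of 7 duct genes 6 had a read, with a mean sum of 218 against 194 RPM, of which *Krt7* made up 169 and 166 RPM, and *Tff2* had none. Of the 6 δ- and PP-cell genes 5 had a read, with a mean sum of 113 against 41.4 RPM, and *Ghsr* had none. *Rbp4* made up 70.5 RPM of the double cells' sum and *Casr*, the calcium-sensing receptor, 40.3 RPM of the insulin-only cells'. The mesenchymal list, led by *Col1a1*, was the exception. Its 10 genes averaged a sum of 1.36 RPM in double and 424 RPM in insulin-only cells, and 9 of them were 2-fold or more below, against 10.7% of all genes, with a median log2 ratio of -4.98. The medians of the sum were 1.22 and 1.73 RPM, and 2 insulin-only cells held 1000 RPM or more, up to 12382 RPM. Without these 2 cells the median log2 ratio was -0.06, so the difference rests on them. *Col1a2*, *Dcn*, *Lum*, *Thy1* and *Rgs5* had no read in a double cell.

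The number of genes per cell was compared at equal depth. A median of 9093.5 genes had a read in the double cells (8033 to 9829), 8869.5 in the insulin-only cells (4677 to 10713) and 6705.5 in the α reference (6287 to 7794). Thinned to 100000 reads, the medians were 6646 genes in double cells (5595 to 7135), 6438 in insulin-only cells (3474 to 8099) and 4990 in the α reference (4501 to 5180). The double median was 207 genes above the insulin-only median. The difference was 71.5 at a hormone threshold of 10000 RPM and 89.4 at 50000 reads. Single cells had an SD of 358 over 22 double cells and 909 over 50 insulin-only cells. These SDs describe cells and do not give the spread of a median. The highest double cell lay below the highest insulin-only cell. The 2 insulin-only cells with the most genes, at 8099 and 8085, were those high in mesenchymal genes, and the next had 7303. All 22 double cells had more genes than any α reference cell. A double cell had the more genes in 59.9% of pairs with an insulin-only cell. As hormone RNA takes up reads, the thinning was repeated without the reads of the hormone genes (*Ins1*, *Ins2*, *Gcg*, *Sst*, *Ppy*, *Pyy* and *Iapp*), and the medians were then 7037, 6562 and 5657 genes, a difference of 475 between double and insulin-only cells.

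For comparison, gene numbers were computed for pairs of cells, with 50000 reads taken from each cell of a pair. The 200 pairs of an α reference cell with an insulin-only cell had a median of 7004 genes (5163 to 8194), and the middle 50% of pairs fell between 6576 and 7243. The double cells' median of 6646 lay inside that middle range and below its median, and above that of the insulin-only cells. Equal reads from each cell were a chosen setting. Pairs with unequal shares, such as the fitted weights given below, were not computed. The 1225 pairs of insulin-only cells had a median of 7475 genes (4800 to 9151). At this depth the double cells thus lay within the ranges of single insulin-only cells and of computed pairs alike. Pairs were not computed without the hormone reads, where the double median of 7037 lay above the insulin-only upper quartile of 6963.

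**Figure D3:**
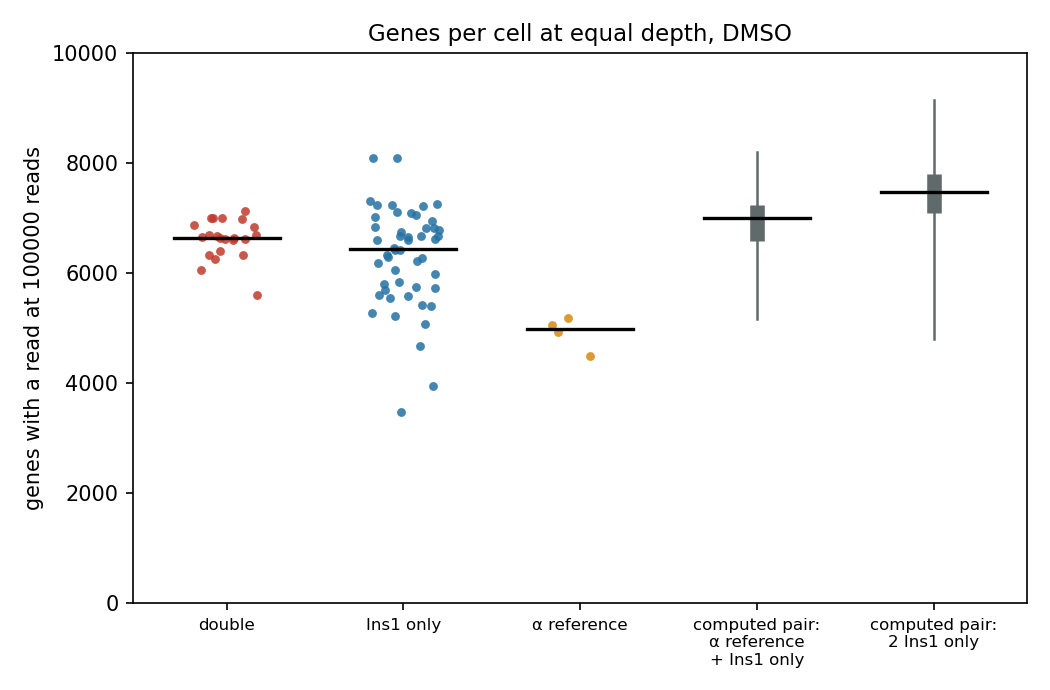
Genes with a read after thinning to 100000 reads, for single DMSO cells (points, with the median as a line) and for computed pairs with 50000 reads from each cell (thin line, range; thick line, middle 50%; black line, median). Medians are 6646 for double cells, 6438 for insulin-only cells, 4990 for the α reference and 7004 for pairs of an α reference with an insulin-only cell.

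Whether the levels fit a mixture was asked gene by gene. The mean RPM of the double cells was written as a weighted mean of the α reference and the insulin-only cells, and the weight of the α reference was solved for each gene. A weight of 0 is the insulin-only level, a weight of 1 the α level, and equal amounts of RNA from both would give 0.5 for every gene. RPM is a share of reads, and cDNA was diluted to a common concentration range before library preparation, so the total RNA of a port cannot be seen. Of 420 genes at least 4-fold higher in the α reference (without *Gcg*), 334 (79.5%) had a weight between 0 and 1, 72 lay at or beyond the insulin-only level and 14 at or beyond the α level. Their median weight was 0.169, with a middle 50% from 0.0454 to 0.352. Of 2308 genes at least 4-fold higher in insulin-only cells (without *Ins1*), 1734 (75.1%) lay between, 571 at or beyond the insulin-only level and 3 at or beyond the α level. The median weight was 0.268, with a middle 50% from 0.00486 to 0.469. These genes were chosen for differing between the same α reference and insulin-only cells, so a place between them is partly set by the choice. Of all 9805 genes of 10 RPM or more in any of the 3 profiles, 57.6% lay between, 3133 at or beyond the insulin-only level and 1024 at or beyond the α level. Weights differed from gene to gene. Taken on RPM computed without the hormone genes, the 2 median weights were 0.135 and 0.129. They were 0.0246 and 0.144 at a hormone threshold of 100 RPM, and 0.271 and 0.349 at 10000 RPM.

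Over these 9805 genes, hormone genes left out, the weight with the smallest squared difference of log2(mean RPM + 1) was 0.18. The root mean square difference was 0.861 at that weight, 0.951 for the insulin-only profile alone, 0.974 for equal parts and 2.23 for the α reference alone. The weight was chosen for the smallest difference, so that it lies below the insulin-only profile is no evidence of a mixture. The 420 α-high genes still hold the hormone gene *Ppy*. Over them the differences were 1.15 at the best weight of 0.17, 1.92 for the insulin-only profile and 1.55 for equal parts. Over the 419 genes without *Ppy* they were 1.09, 1.88 and 1.52. Over the 2308 insulin-only-high genes, with *Ins2* and *Iapp* among them, the differences were 0.634 at 0.28, 0.758 and 0.772. Each set was chosen by how the same α reference and insulin-only cells differ, so these differences partly restate the choice.

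Single genes of the α- and β-cell lists spread around these weights. For *Gcg* itself, at 155885 RPM in double cells against 403466 RPM in the α reference, the weight was 0.386, and for *Ins1* it was 0.266. These 2 genes chose the cells. Among the α-cell list, 11 genes were at least 4-fold higher in the α reference, with weights from 0.0385 to 1.83 and a median of 0.412, near that of *Gcg*. *Irx2* had a weight of 0.446, *Pou3f4* 0.915, *Gc* 0.519 and *Tmem27* 0.394. *Irx2* and *Pou3f4* were each read in 2 of 4 α reference cells, and 1 double cell held 36.7% of its group's *Pou3f4*. *Etv1*, at 211 RPM in double cells against 116 RPM in the α reference, exceeded 1, and *Dpp4* (0.0385) and *Ttr* (0.0497) stood near 0, each read in 1 α reference cell. Among the β-cell list, 14 genes were at least 4-fold higher in the insulin-only cells apart from *Ins1*, with a median weight of 0.189. *Nkx6-1* (0.0433), *Slc2a2* (-0.0106), *Ucn3* (0.0511) and *Prlr* (0.00604) stood near the insulin-only level, *Pcsk1* (-0.202) above it, and *Pdx1* (0.322), *Ins2* (0.305) and *Iapp* (0.255) below it. *Npy* had the highest weight, 0.874, and *P2ry1* the lowest, -2.34. Of the 11 α-cell genes 8 had a weight under 0.5, and of the 14 β-cell genes 13.

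The same weights were computed for each cell from the summed RPM of the reference genes, hormone genes left out, which gives abundant genes more say. By the α-high genes the double cells ran from 0.0884 through 0.279 to 0.668 and the insulin-only cells from -0.0823 through 0.00228 to 0.131, and 21 of 22 double cells lay above every insulin-only cell. The exception was DMSO cell 38, at 0.0884. The genes were chosen as low in these insulin-only cells, and 3 other DMSO cells with *Gcg* below 1000 RPM also lay above them, cells 29 (0.237), 37 (0.226) and 42 (0.364), so a high weight was not particular to double cells. By the insulin-only-high genes the double cells ran from 0.0892 through 0.403 to 0.527 and the insulin-only cells from -0.440 through -0.0260 to 0.351, so the groups overlapped. The 4 α reference cells, whose mean sets the weight of 1, themselves ran from 0.531 through 0.955 to 1.56 on the first measure. On the second they ran from 0.989 to 1.01. A weight of 0.5 or more was reached by 1 double cell on the first measure and 3 on the second. The 16 α reference cells from GNF4877 ran from 0.0165 through 0.195 to 0.483 on the first measure, so none of them reached 0.5 either, and from 0.253 through 0.582 to 0.815 on the second. The cell nearest the α reference on the first measure was DMSO cell 21, at 0.668, with 0.502 on the second. This cell had the least *Ins1* and no read of *Irx2* or *Pou3f4*. DMSO cell 60, with the least *Gcg*, had weights of 0.224 and 0.0892.

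Across the 22 double cells, which share a treatment and in which hormone reads lower the RPM of other genes, *Gcg* and *Ins1* had Pearson's r of -0.358 and Spearman's rho of -0.377. *Gcg* and the weight from insulin-only-high genes had r of 0.673 and rho of 0.586, and r of 0.594 without the 2 cells farthest from the median of *Gcg*. *Gcg* and the weight from α-high genes had r of 0.202. The 2 weights had r of 0.416, and r of 0.230 without the 2 farthest cells. These values describe the cells and carry no test.

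Some genes stood above both profiles. Of 7654 genes with 10 RPM or more and a read in 50% or more of the double cells, 222 were 2-fold or more above the higher of the insulin-only cells and the α reference, and 146 of them were also 2-fold or more above the GNF4877 α reference. The 7654 genes were admitted by their level in the double cells, which favours genes above both profiles. *Ppy* had the highest ratio, which the rule sets in part, as it holds *Ppy* below 1000 RPM in both other groups and leaves it free in the double cells. With an α reference of 4 cells, how many of these genes lie above by chance was not tested.

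GNF4877-treated islets gave 1 double cell in 81 kept (1.23%, exact interval 0.0313% to 6.69%), which served as a single point of comparison. It held 40717 RPM of *Ins1* and 37011 RPM of *Gcg*, had 4251 genes at 100000 reads, and had no read of *Irx2*, *Pou3f4*, *Pdx1* or *Nkx6-1*. Its weights were 0.326 and 0.388. Of cells with *Gcg* of 1000 RPM or more, 22 of 27 were double in DMSO (81.5%, 61.9% to 93.7%) and 1 of 19 in GNF4877 (5.26%, 0.133% to 26.03%). Treatment and chip cannot be told apart in these shares.

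The promoters of both hormone genes are shown because these genes define the double cells. Each runs from 250 bases before to 50 bases after the gene start in RefSeq, assembly GRCr8, 5′ to 3′ on the gene's strand, *Ins1* at chr1:261185869-261186168 (plus strand) and *Gcg* at chr3:67531484-67531783 (minus strand). Capitals mark CATCTG, an E-box that bHLH factors such as Neurod1 can bind, and TAATTA, a homeodomain motif, each searched on both strands. CATCTG occurs in 16.6% of 33469 promoters of this length and TAATTA in 5.36%.
Ins1: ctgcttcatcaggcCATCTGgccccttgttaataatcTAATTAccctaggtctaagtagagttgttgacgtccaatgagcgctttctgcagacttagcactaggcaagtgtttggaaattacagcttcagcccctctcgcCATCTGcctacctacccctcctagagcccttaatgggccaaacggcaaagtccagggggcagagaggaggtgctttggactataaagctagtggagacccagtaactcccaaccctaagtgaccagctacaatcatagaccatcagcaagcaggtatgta
Gcg: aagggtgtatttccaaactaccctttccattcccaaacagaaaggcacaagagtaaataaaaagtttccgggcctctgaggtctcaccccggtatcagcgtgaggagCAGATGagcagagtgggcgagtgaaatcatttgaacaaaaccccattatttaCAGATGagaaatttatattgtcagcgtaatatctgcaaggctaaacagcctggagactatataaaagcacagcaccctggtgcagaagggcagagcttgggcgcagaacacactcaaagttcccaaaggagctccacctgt
The window of *Ins1* holds 2 copies of CATCTG and 1 of TAATTA, and that of *Gcg* 2 copies of CATCTG. A match is a description of the letters and does not show that a factor was bound.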

How the data were processed

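Single-cell RNA of 86 DMSO and 84 GNF4877 rat islet cells was analysed. The authors aligned 50 bp reads, kept cells with more than 100000 mapped reads and deposited RPM for 27586 transcripts, in which each cell is scaled by its own mapped reads. The submitters' processing notes name CASAVA 1.8.2, BWA 0.5.9 and SAMtools 0.1.19. The methods name a mouse transcriptome, whereas the rows are rat RefSeq transcripts. All 170 columns matched a sample.

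Values at the floor of 0.01 (69.7%) were set to 0, and the rows of a gene were summed, giving 24113 genes. Reads per cell came from the step between values, and 100% of values of up to 20 reads were whole reads to within 0.1. Genes with near-identical copies, such as *Ins1* and *Ins2*, can share reads. The pseudocount was 1 RPM. Thinning was computed in closed form without random draws. Cells of a treatment are not replicates, so no test was run. A share of 0 is given with its exact 95% limit, and a fold against 0 uses 3 reads over the group. Ports with a pair of cells were not removed beyond the inspection by the authors. No 2 libraries were identical.

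Members and lists were chosen with earlier results of these data known. Genes named were *Ins1*, *Ins2*, *Gcg*, *Sst*, *Ppy* and *Irx2*, members of the α, β and shared lists, of other lists the 3 most abundant and those without a read, with *Jun* added after its value was seen, and the 15 highest and 15 lowest log2 ratios among genes read in 50% or more of the cells of the higher group. Of 161 genes in 14 lists, 158 matched. Some genes within this rule are not reported here. The steps were tried on made-up cells with known answers. Alternatives varied the hormone threshold, cell filter, summing of rows, scale, pseudocount, depth, reference and single cells. Work was done with matplotlib 3.10.9, scipy 1.17.1, pandas 2.3.3 and numpy 2.4.6 under Python 3.11.15.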

Additional observations from a re-analysis of the deposited data

How the results depend on the processing

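A value was taken as kept when a share stayed in its exact 95% interval, a log2 value moved by less than 1.5-fold, and a count or weight stayed within 1.5 times. Of 113 values of the main results under alternatives, 98 were kept and 15 moved. None of 2-fold or more changed sign. The β-cell list median, -0.06, did change sign, to 0.12 on RPM without hormone genes and 0.03 with log2(RPM + 1) averaged over cells.

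At a hormone threshold of 100 RPM, with 44 double cells, 33 insulin-only cells and 1 α reference cell, the share of double cells was 53.7% and the median weights were 0.0246 and 0.144. At 10000 RPM, with 18, 49 and 8 cells, the weight from α-high genes was 0.271 and the double cells had 71.5 genes more. The difference in genes was 89.4 at 50000 reads and 475 without hormone reads. RPM without hormone genes moved the median of all genes from -0.09 to 0.03 and gave a weight of 0.129 from insulin-only-high genes. The α-cell list median was 2.56 with a pseudocount of 0.1 RPM and 0.80 with 10 RPM. At these pseudocounts the genes 2-fold or more above numbered 2282 and 334, and the genes 2-fold or more below 3046 and 368. With log2(RPM + 1) averaged over cells 461 were below. By construction the pseudocount pulls ratios of low values toward 0. The cause of the other moves was not tested.

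With each double cell left out in turn the α-cell list median ran from 1.47 to 1.82. Among alternatives chosen after seeing the data, leaving out the 5 double cells with 1000 RPM of *Ppy* gave list medians of 1.54 and -0.17 and weights of 0.143 and 0.284. Leaving out each α reference cell gave weights of 0.115 to 0.179 and 0.240 to 0.260. Leaving out the 2 insulin-only cells high in mesenchymal genes turned *Col3a1* from -6.46 to 0.0943, and the threshold of 100 RPM turned *LOC100912222* to 0.53 and *F3* to 0.23. Of 53 named genes 2-fold apart, the other 50 kept their sign. No paired analysis was possible because the labels pair no cells.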
